A study of Mus musculus with 3 samples.

Results

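Serine tRNA fragments were the small RNA reads assigned to mouse nuclear serine tRNA genes with the anticodons AGA, TGA, CGA and GCT. All rows with these anticodons were taken, whatever their counts, from the deposited table of reads per tRNA gene and from the deposited tables of each library. These rows came to 22 of 446 genes in the gene table (8 AGA, 3 TGA, 3 CGA and 8 GCT genes) and 21 of 413 genes in the per-library tables. The gene missing from the per-library tables, tRNA-Ser-AGA-3-1, had 0 reads in every library of the gene table, which at a floor of 3 counts allows up to 0.195, 0.142 and 0.199 RPM (reads scaled to library depth, defined below) in knockout 1, knockout 2 and the wild type. The only other serine gene listed, tRNA-Ser-GGA-1-1, has an anticodon outside this choice and had 1, 2 and 2 reads in the same order.

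The libraries were made from epididymis, the duct in which sperm mature, of mice lacking Alkbh3 (Alkbh3-/-, 2 libraries, called knockout 1 and knockout 2 after their labels) and of the wild type, described as B6WT (1 library). RNA of 15 to 50 nt was recovered from a gel before the libraries were built. The labels do not give age, the knockout allele, whether RNA of several animals was pooled, or whether the knockout libraries came from separate animals, so the spread between them may be technical. Depth was 15411457 reads in knockout 1, 21169908 in knockout 2 and 15107055 in the wild type over 5 RNA classes, and RPM values are reads divided by these totals and multiplied by 1000000. miRNA reads made up 24.8% and 30.7% of the knockout libraries and 15.1% of the wild type. The tables hold tRNA genes and class totals only, so neither loss of Alkbh3 mRNA nor epididymal marker genes could be looked at. In bulk tissue, fewer cells of a type and less RNA per cell cannot be told apart.

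ALKBH3 is a demethylase that acts on 1-methyladenosine and 3-methylcytidine in nucleic acids, tRNA included. Serine tRNAs read the serine codons through several anticodons, and with leucine and selenocysteine tRNAs they are the tRNAs with a long variable arm. They carry 3-methylcytidine at position 32 of the anticodon loop, and as a group they are also listed with it in the variable arm. Cleavage in the anticodon loop splits a tRNA into a 5′ and a 3′ piece, and cleavage elsewhere gives shorter tRNA-derived fragments. The mature tRNA ends in CCA, which is added after transcription and is not part of the gene.

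Sequences are shown to make clear which serine tRNAs the reads can tell apart. They could be read for 4 of the 21 genes with coordinates, from GENCODE transcripts (build GRCm38, the build of mm10) that cover the whole gene. They run 5′ to 3′ on the strand of the tRNA and positions are counted from 1 at the first base. Capitals mark the anticodon at positions 34 to 36 and, in the AGA and TGA genes, the other base in which these differ.
tRNA-Ser-AGA-2-1: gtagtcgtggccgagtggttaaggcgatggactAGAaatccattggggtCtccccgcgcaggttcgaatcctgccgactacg
tRNA-Ser-TGA-2-1: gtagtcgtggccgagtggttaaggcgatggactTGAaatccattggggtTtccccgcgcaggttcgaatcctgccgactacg
tRNA-Ser-GCT-4-2: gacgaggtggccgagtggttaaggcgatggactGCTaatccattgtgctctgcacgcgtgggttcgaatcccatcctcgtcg
The AGA-2-1 gene lies at chr4:10874064-10874145 on the plus strand, TGA-2-1 at chr13:21924935-21925016 on the minus strand and GCT-4-2 at chr13:22050686-22050767 on the minus strand. tRNA-Ser-TGA-2-2 (chr13:23518146-23518227, plus strand) had the same sequence as TGA-2-1. Each is 82 nt long and has C at position 32.

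The AGA and TGA genes shown were alike at 80 of 82 bases and differed by A34T in the anticodon and C50T (AGA-2-1 base first). Their first 33 and their last 32 bases were the same. A read that covers neither position 34 nor position 50 is therefore the same for these AGA and TGA genes. The GCT-4-2 gene differed from AGA-2-1 at 20 bases, and their longest shared run was 27 bases, from position 7 to position 33.

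All 21 genes with coordinates were 82 nt long, and for each a tRNA gene with identical bounds was listed by RefSeq. Of these genes 12 lay on chromosome 13, between 21492845 and 23521951. Overlap with a GENCODE gene was found for 5. AGA-2-1, TGA-2-1 and TGA-2-2 lay in exons of the same-strand entries n-TSaga9, Gm44456 and n-TStga1, which are annotated as miRNA genes. AGA-2-5 overlapped the same-strand lncRNA gene Gm11280, without an exon that covers it whole, and GCT-4-2 lay in an exon of Gm48356 on the other strand.

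Serine tRNAs were a small part of the tRNA reads. They had 1405 and 2184 reads in the gene table in the knockout libraries and 1098 in the wild type, which was 0.0421% and 0.0458% of tRNA reads against 0.0274% (95% Wilson intervals 0.0399 to 0.0443%, 0.0439 to 0.0478% and 0.0258 to 0.0290%, counting error only). As RPM the serine reads stood at 91.2 and 103 in the knockout libraries and 72.7 in the wild type. Both knockout libraries lay above the wild type, with a knockout mean of 97.2 ± 8.48 RPM (SD, n = 2), 1.34 times the wild type, while all tRNA reads of that table stood at 0.832 times. The wild type has no replicate here or below.

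Ser-AGA and Ser-GCT gave most of these reads. tRNA-Ser-AGA, whose anticodon reads UCU and, through inosine, UCC codons, had 38.2 and 47.6 RPM in the knockout libraries and 28.4 in the wild type. tRNA-Ser-GCT, which reads the AGU and AGC codons, had 39.5 and 38.4 RPM in the knockout libraries and 31.4 in the wild type. For both anticodons the knockout libraries lay above the wild type, and which of the pair was the more abundant differed between the knockout libraries.

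tRNA-Ser-TGA, which reads mainly UCA codons, had 11.2 and 15.0 RPM in the knockout libraries and 11.3 in the wild type, so the groups overlapped. tRNA-Ser-CGA, which reads UCG codons, had 2.27 and 2.22 RPM in the knockout libraries and 1.59 in the wild type, from 35, 47 and 24 reads. The order of the scarcer anticodons, TGA above CGA, was the same in every library. Both knockout libraries lay above the wild type in 3 of the 4 serine anticodons, beside 24.4% of all anticodons tested.

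**Figure D1:**
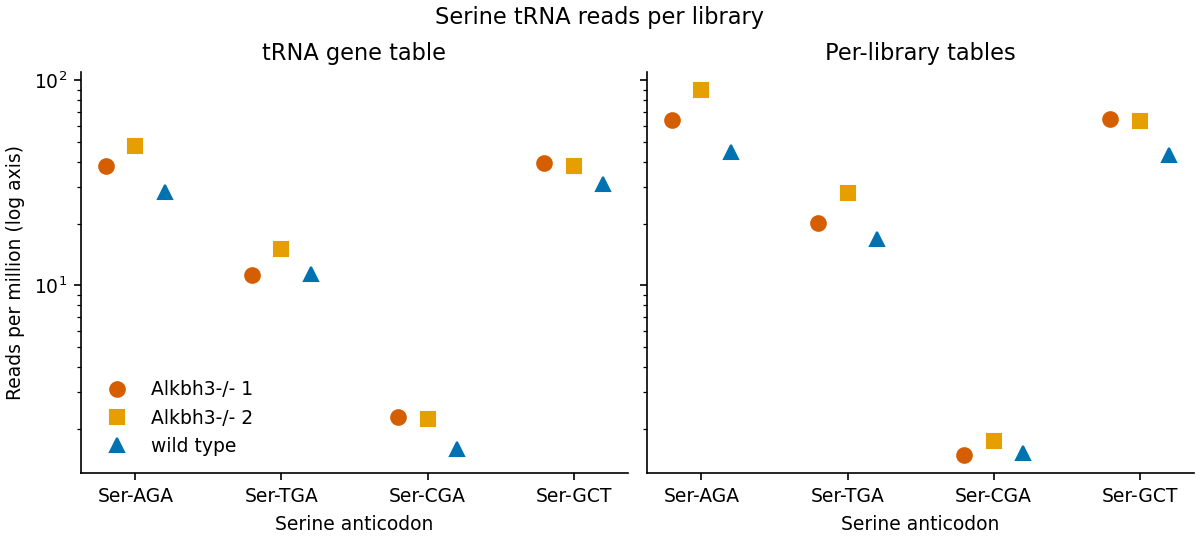
RPM (log axis) of the serine anticodons in the Alkbh3-/- libraries and the wild type, from the gene table (left) and the per-library tables (right), 1 point per library. In the gene table the knockout points lie above the wild type for AGA, CGA and GCT, and knockout 1 lies at the wild type for TGA.

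None of the 4 serine anticodons passed the test of knockout against wild type, edgeR's quasi-likelihood test over all 45 tested anticodons with Benjamini-Hochberg adjustment at 0.05, of which 11.1% passed in either direction, 2.22% upwards and 8.89% downwards. The log2 fold change was 0.60 (SE 0.34, adjusted p = 0.271) for Ser-AGA, 0.50 (SE 0.40, adjusted p = 0.458) for Ser-CGA, 0.31 (SE 0.33, adjusted p = 0.546) for Ser-GCT and 0.21 (SE 0.30, adjusted p = 0.670) for Ser-TGA by that test. Of these, 0 had an unadjusted p under 0.05 by edgeR, against 22.2% of all anticodons, and 1 by DESeq2, which called 0. The median over the serine anticodons was 0.40, against -0.29 over all anticodons tested, of which 37.8% were fitted above 0. Relative to that median, Ser-AGA stood at 0.89, Ser-CGA at 0.79, Ser-GCT at 0.60 and Ser-TGA at 0.51. Ser-AGA passed upwards with TMM factors in place of plain library totals (log2 fold change 0.85, adjusted p = 0.0184 by edgeR), where 8 anticodons passed in all, and in none of the other 6 alternatives with a test, with adjusted p up to 0.737 without miRNA reads in the library size.

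The per-library tables gave other counts, higher than the gene table for every serine anticodon but CGA. Ser-AGA had 64.2 and 89.2 RPM in the knockout libraries and 44.6 in the wild type, and Ser-GCT 64.7 and 63.6 RPM against 43.1 in the wild type. Ser-TGA had 20.1 and 28.2 RPM in the knockout libraries and 16.7 in the wild type, so there both knockout libraries lay above it. Ser-CGA had 1.49 and 1.75 RPM against 1.52 in the wild type, and the groups overlapped. The 4 together stood at 150.4 and 183 RPM in the knockout libraries and 106 in the wild type. The adjusted p on these counts ran from 0.238 for Ser-AGA to 0.946 for Ser-CGA by edgeR's quasi-likelihood test, so 0 of 4 passed.

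Single gene copies were counted separately by the authors. Of 22 genes, 19 passed the filter on low counts and were tested, and 0 passed the threshold, against 11.8% of the 348 genes tested in all, 3.16% higher and 8.62% lower. An unadjusted p under 0.05 was reached by 3 of the 19 with edgeR, all higher, a share near the 15.5% of all genes tested, and by 2 with DESeq2. The knockout libraries both lay above the wild type in 14 of the 19 and both below in 2, beside 21.3% and 48.3% of all genes tested. The genes both below passed the filter only through the wild type, and tRNA-Ser-CGA-2-1, among those above, only through the knockout libraries. Genes that share reads are not independent, and the median log2 fold change was 0.50 over the serine genes and -0.17 over all.

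The most abundant AGA genes in the gene table, by mean over the libraries, were tRNA-Ser-AGA-2-2 (chromosome 11, 69037477 to 69037558, plus strand) and tRNA-Ser-AGA-2-3 (chromosome 13, 21919215 to 21919296, plus strand), both outside GENCODE genes. AGA-2-2 had 9.86 and 9.21 RPM in the knockout libraries and 8.27 in the wild type (log2 fold change 0.20, adjusted p = 0.929 by edgeR). AGA-2-3 had 5.77 and 7.37 RPM in the knockout libraries and 3.51 in the wild type (log2 fold change 0.91, adjusted p = 0.283 by edgeR). In the wild type alone AGA-2-5, with 57 reads, stood above AGA-2-3, with 53. All 7 AGA genes tested were fitted above 0, beside 33.6% of all genes tested.

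The most abundant GCT genes were tRNA-Ser-GCT-4-3 (chromosome 13, 23521870 to 23521951, plus strand) and tRNA-Ser-GCT-4-1 (chromosome 11, 69063042 to 69063123, minus strand), both outside GENCODE genes. GCT-4-3 had 9.60 and 7.51 RPM in the knockout libraries and 6.02 in the wild type (log2 fold change 0.50, adjusted p = 0.692 by edgeR). GCT-4-1 had 8.11 and 8.27 RPM in the knockout libraries and 7.35 in the wild type (log2 fold change 0.16, adjusted p = 0.929 by edgeR). The lowest fitted change of any serine gene was that of tRNA-Ser-GCT-5-1 (chromosome 13, 21492845 to 21492926, minus strand), with 4 and 6 reads in the knockout libraries and 12 in the wild type (log2 fold change -1.52, adjusted p = 0.401 by edgeR). It passed the low-count filter only through the wild type, so its p-value is a description and supports no difference.

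Among TGA genes, TGA-2-2 had 6.16 and 7.37 RPM in the knockout libraries and 6.49 in the wild type (log2 fold change 0.064), and TGA-2-1 had 4.54 and 6.61 RPM against 3.97 in the wild type (log2 fold change 0.50). The highest fitted change of any serine gene was that of tRNA-Ser-CGA-2-1 (chromosome 10, 128458464 to 128458545, minus strand), with 21 and 29 reads in the knockout libraries and 7 in the wild type (log2 fold change 1.55, SE 0.68, adjusted p = 0.184 by edgeR). In the per-library tables the same gene had 7 and 20 reads in the knockout libraries and 11 in the wild type, with a log2 fold change of -0.019. The other CGA gene tested, tRNA-Ser-CGA-1-1 (chromosome 11, 69110919 to 69111000, plus strand), had 8 and 9 reads in the knockout libraries and 12 in the wild type (log2 fold change -0.76). CGA-2-1 passed the low-count filter only through the knockout libraries and CGA-1-1 only through the wild type, so these fitted changes support no difference.

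The read lengths of the per-library tables set serine apart from the bulk of tRNA reads. Reads of 24 nt made up 51.8% and 60.6% of serine reads in the knockout libraries and 53.8% in the wild type, against 0.0368%, 0.0537% and 0.0311% of the reads of all other tRNAs in the same order. Those others consisted mainly of reads of 30 to 36 nt, at 91.6% and 90.7% in the knockout libraries and 94.2% in the wild type. In serine, reads of 30 to 36 nt made up 15.9% and 9.82% in the knockout libraries and 19.6% in the wild type. With 0.0438%, 0.0509% and 0.0248% of the tRNA reads in these tables, serine held 38.1% and 36.5% of all 24 nt tRNA reads in the knockout libraries and 30.03% in the wild type (Wilson intervals 36.5 to 39.9%, 35.4 to 37.7% and 28.4 to 31.7%).

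**Figure D2:**
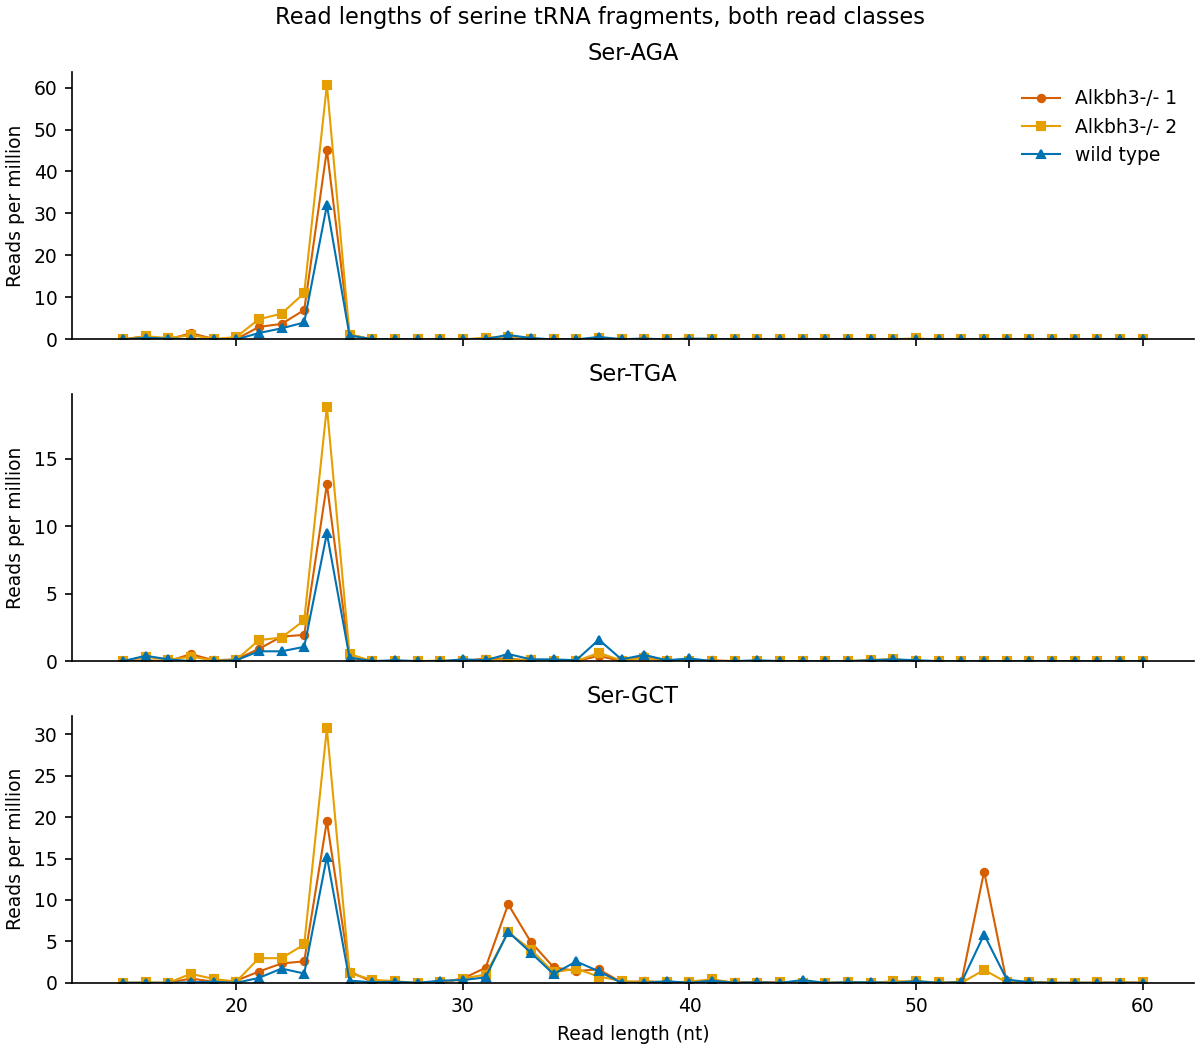
RPM at each read length from 15 to 60 nt, both read classes together, for Ser-AGA, Ser-TGA and Ser-GCT in each library. All 3 peak at 24 nt in every library, and Ser-GCT has further peaks at 32 nt and 53 nt.

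Length differed between the serine anticodons. Reads of 24 nt made up 70.4% and 67.9% of Ser-AGA reads in the knockout libraries and 71.7% in the wild type, and 65.4% and 66.7% of Ser-TGA reads against 56.5% in the wild type. In Ser-GCT they made up 30.2% and 48.3% in the knockout libraries and 35.3% in the wild type, with the wild type between the knockout libraries. Ser-CGA had 1 and 15 such reads in the knockout libraries and 5 in the wild type, too few to place it.

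In the wild type the second most frequent Ser-TGA reads were those of 36 nt in the second read class described below, with 24 reads. Reads of 21 to 25 nt together made up 93.5% and 93.9% of Ser-AGA in the knockout libraries and 92.1% in the wild type, and 89.97% and 91.0% of Ser-TGA against 73.1% in the wild type. Among all anticodons with at least 100 reads in each library, Ser-AGA, Ser-TGA and Ser-GCT had the 3 highest shares of 24 nt reads in every library. The next were Leu-TAA, a leucine tRNA with a long variable arm too, at 5.52% and 10.7% in the knockout libraries and 10.3% in the wild type, and Ala-AGC at 6.15% and 9.57% against 5.17%. Leu-CAG and Leu-AAG, of the same structural class, were at or below 1.76% in every library.

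**Figure D3:**
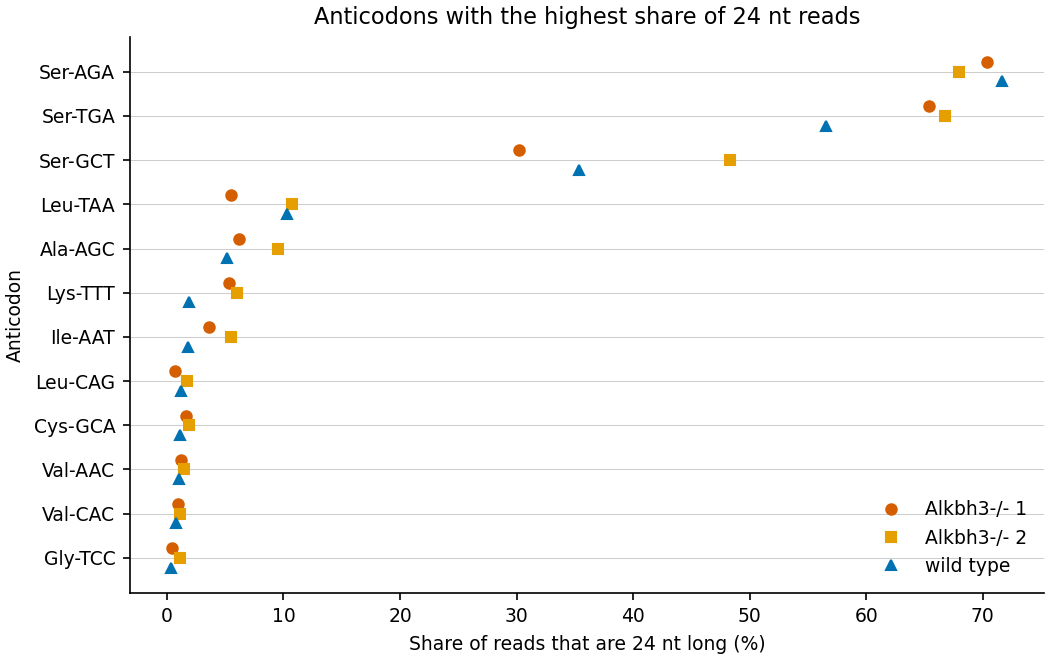
Share of an anticodon's reads that are 24 nt long, in percent, for the 12 anticodons with the highest share in the wild type among those with at least 100 reads in each library, 1 point per library. Ser-AGA, Ser-TGA and Ser-GCT lie between 30.2% and 71.7%, and the others at or below 10.7%.

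Short serine reads were also where the libraries differed most in RPM, though not in ratio. Serine reads of 24 nt stood at 77.9 and 111 RPM in the knockout libraries and 57.0 in the wild type, 1.37 and 1.95 times the wild type. Both knockout libraries lay above the wild type, and they differed from each other by more than knockout 1 did from the wild type. In all other tRNAs 24 nt reads stood at 126 and 193 RPM in the knockout libraries and 133 in the wild type, so there the groups overlapped. Most of those came from Val-CAC (57.1 and 85.5 RPM in the knockout libraries, 66.7 in the wild type) and Val-AAC (29.1 and 47.1 RPM against 34.5). Of the 37 anticodons other than serine with at least 100 reads in each library, 13 had more 24 nt RPM in both knockout libraries than in the wild type, such as Lys-TTT with 16.3 and 20.8 RPM in the knockout libraries and 8.34 in the wild type, so the direction was not particular to serine. Serine reads of 30 to 36 nt stood at 23.9 and 17.95 RPM in the knockout libraries and 20.8 in the wild type, and overlapped as well.

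The deposited per-library tables enter reads in 2 columns without describing them, called here the first and second read class by their order. Per anticodon, 24 nt reads of the first read class had a log2 fold change of 0.73 (SE 0.59) for Ser-AGA, 0.76 (SE 0.67) for Ser-TGA and 0.72 (SE 0.64) for Ser-GCT, with adjusted p = 0.661, 0.666 and 0.671 by edgeR's quasi-likelihood test. Features here are sums per anticodon, read class and read length, 834 tested in all. Of 156 serine features with reads, 28 passed the filter on low counts and 0 passed the threshold, against 2.16% of all, 1.2% higher and 0.959% lower. By edgeR 6 had an unadjusted p under 0.05, 5 higher and 1 lower, against 12.4% of all features, and by DESeq2 3 had one, all higher. Both knockout libraries lay above the wild type in 21 of the 28 and below it in 3, beside 33.7% and 40.5% of all features. In the first class 23 of 25 features tested were fitted above 0, where 49.4% of all features of both classes were. Some of the 28 passed the filter only through the knockout libraries, where they were higher, and others only through the wild type. Features that share reads, as Ser-AGA and Ser-TGA can, are not independent, so these counts only describe the values.

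Over the libraries together, 23 and 22 nt reads of the first class came next after 24 nt in both Ser-AGA and Ser-TGA. For Ser-AGA the 23 nt reads stood at 7.01 and 11.1 RPM in the knockout libraries and 4.04 in the wild type (log2 fold change 1.16, adjusted p = 0.499 by edgeR), and the 22 nt reads at 3.70 and 6.14 RPM against 2.65 (0.90, adjusted p = 0.637 by edgeR). For Ser-TGA the 23 nt reads stood at 1.95 and 3.02 RPM in the knockout libraries and 1.06 in the wild type (log2 fold change 1.23, adjusted p = 0.543 by edgeR), and the 22 nt reads at 1.82 and 1.75 RPM against 0.728 (1.28, adjusted p = 0.563 by edgeR). Both knockout libraries lay above the wild type in each. The only CGA feature tested, 24 nt, did not pass (log2 fold change 0.29, adjusted p = 0.957 by edgeR), with the wild type between the knockout libraries.

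How reads were divided among gene copies could be seen at 24 nt. The 7 AGA-1 and AGA-2 genes had 90 to 121 reads each in knockout 1, 172 to 205 in knockout 2 and 61 to 74 in the wild type. The TGA-2-1 and TGA-2-2 genes had 88 and 106 in knockout 1, 196 and 183 in knockout 2 and 57 and 80 in the wild type, which is within or near the range of the AGA genes. The means per copy were 99.4, 183 and 69 reads for AGA and 97.0, 190 and 68.5 for TGA-2. Over these 9 genes the variance was 1.17, 0.606 and 0.749 times the mean, where counts split at random have a ratio near 1. The tables give no position of a read within its tRNA, so whether these reads cover position 34 or 50 was not tested. The third TGA gene, TGA-1-1, had 8, 20 and 6 such reads in knockout 1, knockout 2 and the wild type.

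The GCT-1 to GCT-4 genes had 37 to 62 reads of 24 nt in knockout 1, 82 to 136 in knockout 2 and 26 to 54 in the wild type. Over these 6 genes the variance was 1.38, 3.27 and 2.16 times the mean in the same order, higher than over the AGA and TGA-2 genes. GCT-5-1 and GCT-6-1 had at most 2 in any library. The genes with few 24 nt reads were thus GCT-5-1, GCT-6-1, TGA-1-1 and the CGA genes.

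**Figure D4:**
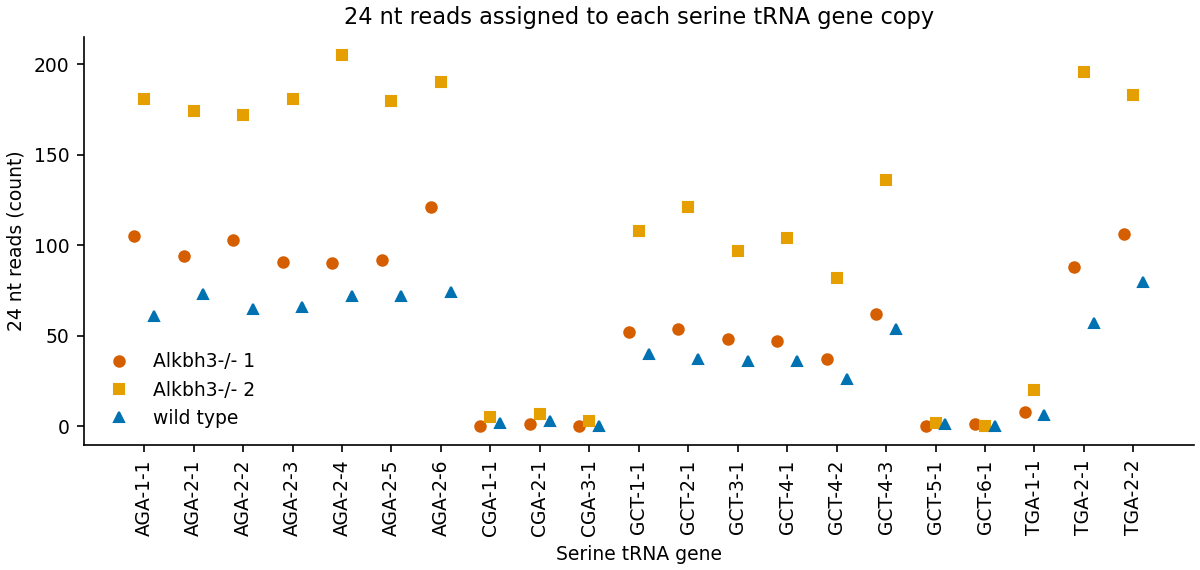
Count of 24 nt reads assigned to each of the 21 serine tRNA genes in each library, both read classes together, not scaled for depth. The AGA genes and TGA-2-1 and TGA-2-2 lie at one level within each library, the GCT-1 to GCT-4 genes lower, and the CGA genes, GCT-5-1, GCT-6-1 and TGA-1-1 at or below 20 reads.

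With Ser-AGA and Ser-TGA summed, a grouping chosen after the data were seen, their log2 fold change in the gene table was 0.50 (SE 0.35, adjusted p = 0.380 by edgeR). Their 24 nt reads of the first class stood at 58.3 and 79.5 RPM in the knockout libraries and 41.4 in the wild type (log2 fold change 0.73, adjusted p = 0.649 by edgeR). Neither sum passed.

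Reads of 18 nt were the serine fragments with the largest fitted change. In Ser-AGA there were 23 and 22 such reads in the knockout libraries and 1 in the wild type, in Ser-GCT 8 and 23 against 1, and in Ser-TGA 8 and 7 against 0. Over the 4 anticodons the first read class held 39 and 52 reads of 18 nt in the knockout libraries and 2 in the wild type, a ratio of RPM of 19.1 in knockout 1 (exact 95% interval 4.95 to 163, counting error only) and 18.6 in knockout 2 (4.88 to 157). In all other tRNAs first-class reads of 18 nt stood at 4.54 and 7.32 RPM in the knockout libraries and 2.85 in the wild type, higher in both too. Both classes together stood there at 6.29 and 9.68 RPM against 5.30. With both classes counted, serine held 28.7% and 20.5% of all 18 nt tRNA reads in the knockout libraries and 2.44% in the wild type.

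The 18 nt reads of Ser-AGA did not pass the fragment test (log2 fold change 4.11, SE 1.38, adjusted p = 0.103 by edgeR) and nor did those of Ser-GCT (3.48, SE 1.56, adjusted p = 0.313 by edgeR). Those of Ser-AGA passed with column sums as library size (adjusted p = 0.0404 by edgeR), where 37 features passed in all against 18 with the 5-class totals, and over the 5 alternatives that gave an adjusted p, DESeq2 giving none, it ran from 0.0404 to 0.234. With Ser-AGA and Ser-TGA summed, 31 and 29 reads in the knockout libraries stood against 1 in the wild type, with a log2 fold change of 4.52 (SE 1.28, adjusted p = 0.0285 by edgeR). This sum was made after the values were seen, and all these 18 nt features passed the low-count filter only through the knockout libraries, so these p-values are a description and support no difference. With no filter the adjusted p for Ser-AGA was 0.234 by edgeR. Fitted folds against a single read depend on the small count that the fit adds.

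The other 4 features with an unadjusted p under 0.05 by edgeR were of Ser-GCT, and none passed. The lower one, second-class reads of 35 nt (unadjusted p = 0.0042 by edgeR), is described below. Among first-class reads, those of 21 nt had 21 and 63 in the knockout libraries and 9 in the wild type (log2 fold change 1.86), those of 23 nt had 39 and 98 against 17 (1.67), and those of 25 nt had 21 and 25 against 4 (2.23). These 3 were higher in both knockout libraries. Those of 21 and 25 nt passed the low-count filter only through the knockout libraries, so their p-values are a description and support no difference.

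The second class made up 11.0% and 3.18% of serine reads in the knockout libraries and 12.7% in the wild type, against 0.410%, 0.417% and 0.374% of the reads of all other tRNAs. All 24 nt reads of Ser-AGA and Ser-TGA were of the first class. In Ser-TGA the second class held 4.53% and 4.52% of reads in the knockout libraries and 18.6% in the wild type (Wilson intervals 2.72 to 7.46%, 3.12 to 6.49% and 14.3 to 23.8%), so both knockout libraries lay below the wild type. In Ser-GCT it held 22.9% and 5.13% in the knockout libraries and 21.2% in the wild type, and the groups overlapped. These shares were not tested.

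Second-class reads fell into distinct lengths. In Ser-GCT reads of 53 nt led, with 206 and 30 in the knockout libraries and 80 in the wild type, or 13.4 and 1.42 RPM against 5.30 RPM, a length above the 50 nt limit of the gel cut. Knockout 1 lay above the wild type and knockout 2 below it, by 2.52 times and 0.268 times, and the fitted log2 fold change of 0.47 did not pass (adjusted p = 0.817 by edgeR). In all other tRNAs second-class reads of 53 nt stood at 17.6 and 15.8 RPM in the knockout libraries and 5.43 in the wild type, higher in both. The first-class reads of 30 nt and over in Ser-GCT peaked at 32 nt, with 9.41 and 6.09 RPM in the knockout libraries and 6.16 in the wild type (log2 fold change 0.33, adjusted p = 0.871 by edgeR). The lengths 32 and 53 nt sum to 85 nt, which is the gene length of 82 nt plus the 3 bases of CCA. For Ser-TGA the leading lengths from 30 nt up, 32 nt in the first class and 36 nt in the second, sum to 68 nt, 14 nt short of the gene. Over all libraries these Ser-TGA lengths rest on only 12 and 43 reads, and the Ser-GCT lengths on 367 and 316.

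The 53 nt reads were spread unevenly over the GCT genes, and alike in each library. GCT-4-3 held 98 of 206 and 14 of 30 in the knockout libraries and 35 of 80 in the wild type, or 47.6%, 46.7% and 43.8%. GCT-1-1, GCT-3-1, GCT-4-1 and GCT-4-2 held 10.0% to 17.5% each. GCT-2-1, which had 24 nt reads like the others, had 0 in every library, as had GCT-5-1.

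Second-class reads of 35 nt were of another source and direction. In Ser-GCT there were 7 and 8 in the knockout libraries and 34 in the wild type, or 0.454 and 0.378 RPM against 2.25 RPM (log2 fold change -2.42, SE 0.84, adjusted p = 0.119 by edgeR). Both knockout libraries lay below the wild type, and the feature did not pass in any of the 5 alternatives that gave an adjusted p (0.116 to 0.343). It passed the low-count filter only through the wild type, a single library, so these p-values are a description and support no difference. Of these reads, GCT-3-1 (chromosome 19, 5038304 to 5038385, minus strand, outside GENCODE genes) held 3 and 6 in the knockout libraries and 25 in the wild type, and GCT-5-1 held 1, 1 and 6 in the same order.

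In Ser-TGA the second class was led by reads of 36 nt, with 6 and 13 in the knockout libraries and 24 in the wild type, or 0.389 and 0.614 RPM against 1.59 RPM (log2 fold change -1.63, SE 0.90, adjusted p = 0.433 by edgeR). That feature passed the low-count filter only through the wild type, so its p-value is a description and supports no difference. All second-class reads of 36 nt in Ser-TGA lay in TGA-2-1 and TGA-2-2. In the AGA genes such reads were nearly confined to AGA-1-1, with 1 and 3 in the knockout libraries and 7 in the wild type, while the 6 AGA-2 genes together had 0, 1 and 1. Second-class serine reads of 35 and 36 nt together stood at 0.908 and 1.18 RPM in the knockout libraries and 4.70 in the wild type, 0.193 and 0.251 times. In all other tRNAs second-class reads of 35 nt stood at 90.9 and 83.1 RPM in the knockout libraries and 127 in the wild type, and those of 36 nt at 129 and 114 against 162, so they were lower in both knockout libraries too.

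**Figure D5:**
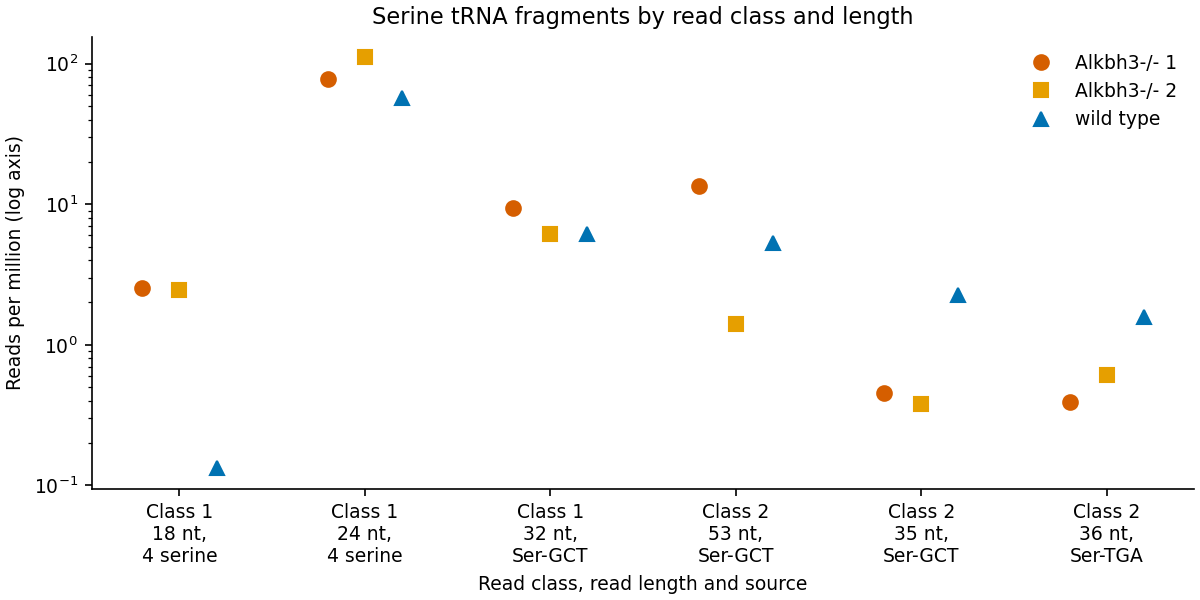
RPM (log axis) of serine tRNA fragments by read class and length in each library. First-class reads of 18 and 24 nt are higher in both knockout libraries, second-class reads of 35 nt (Ser-GCT) and 36 nt (Ser-TGA) lower in both, and those of 53 nt (Ser-GCT) lie on either side of the wild type.

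Serine was set beside the tRNAs that share its modifications or structure. Of the 5 other members of the list with 3-methylcytidine at position 32, 4 were tested, and all 4 were fitted below 0, with a median log2 fold change of -0.47, beside a median of -0.29 over all anticodons, most of which were fitted below 0 too. Thr-AGT, a threonine tRNA, fell (20.1 and 21.5 RPM in the knockout libraries, 50.8 in the wild type, adjusted p = 0.00128 by edgeR), and Thr-CGT (-0.48), Arg-CCT (-0.46) and Thr-TGT (-0.35) did not pass. The serine members lay at 0.21 to 0.60, and the difference between the serine and the other members was not tested.

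Leu-CAG, which with serine makes up the list with 3-methylcytidine in the variable arm, had 38.02 and 46.2 RPM in the knockout libraries and 29.1 in the wild type (log2 fold change 0.53, adjusted p = 0.319 by edgeR). That list was drawn up by anticodon, and whether each serine gene has the modified base was not tested. The TGA genes shown above have T at position 50, where AGA-2-1 has C. Of the 9 tested tRNAs with a long variable arm, 8 were fitted above 0, with a median of 0.41 against -0.29 over all anticodons, and 0 passed. Of the 5 that are not serine, Leu-TAA was highest at 0.74 (adjusted p = 0.098 by edgeR) and SeC-TCA, the selenocysteine tRNA, lowest at -0.41.

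The tRNAs whose levels over the 3 libraries ran most like those of serine were found by the Euclidean distance between log2 RPM profiles centred on their means. For Ser-AGA these were Glu-TTC (distance 0.043), Leu-CAG (0.058) and Leu-TAA (0.190). For Ser-GCT they were Ala-CGC (0.130), Leu-TAG (0.142) and Ala-AGC (0.182), for Ser-TGA Ala-TGC (0.144), Ala-AGC (0.178) and Ala-CGC (0.241), and for Ser-CGA Ala-CGC (0.163), Leu-CAG (0.222) and Leu-TAA (0.226). With 3 libraries such a distance only describes these values.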

How the data were processed

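The authors deposited read counts that were not normalized: reads per RNA class, reads per tRNA gene, and per library the count of each tRNA gene in 2 undescribed read classes with its mm10 position. The deposited length lists, recorded as unit other, hold pairs of a length and a count, and their sums equalled the read class counts for every gene. Per the submitters' processing notes cutadapt was used and the build was mm10. No aligner or counter, and no rule for reads fitting more than 1 gene copy, is given in the sources used here. The gene table held 59.4%, 59.1% and 59.4% of the tRNA class in knockout 1, knockout 2 and the wild type, and the tables of single libraries held 94.1%, 94.2% and 95.5% of it.

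Counts were summed per anticodon, and per anticodon, read class and length. The test of knockout against wild type was the two-sided quasi-likelihood test of edgeR 4.0.16 in R 4.3.3, run on whole tables with the 5-class total as library size, the low-count filter filterByExpr and p-values adjusted by Benjamini-Hochberg (threshold 0.05). It had 1 residual degree of freedom, from the knockout libraries, and assumes that the wild type varies like them. In the main fits the prior degrees of freedom were infinite, so p-values rest on the trend of spread with abundance. With TMM factors, the setting in which Ser-AGA passed, and with column sums for anticodons and genes, they were finite. Those p-values rest in part on the spread of each feature between the knockout libraries. Standard error here means the log2 fold change divided by the root of F. The test was checked on simulated counts for the gene and fragment tables, with large changes and a single fixed spread that may differ from the spread here. That check does not show how often a change in these data would be missed. Alternatives were TMM factors, column sums, totals without miRNA, DESeq2 1.42.0, no filter, no dispersion trend, per-library counts and leaving out each knockout library. Intervals are Wilson or exact binomial and cover counting error only, since reads carry no molecular identifiers.

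Members and lists were chosen with earlier results of these data known. Named were all 4 anticodons, the 2 most abundant genes and the 3 most abundant length features of each, the extreme tested genes, and any that passed. Length features with an unadjusted p under 0.05 and second-class features were named after their values were seen.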

Additional observations from a re-analysis of the deposited data

How the results depend on the processing

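The count of serine anticodons called stayed at 0 in 7 of 8 alternatives and was 1 with TMM factors, Ser-AGA at a log2 fold change of 0.85, where 8 anticodons were called in all against 5. The count of serine genes called was 0 in all 7 alternatives run, and that of length features 0 except for 1, the 18 nt reads of the first class, with column sums (Ser-AGA, 37 features called in all against 18) and with Ser-AGA and Ser-TGA summed. tRNA-Ser-CGA-2-1 turned to -0.019 with per-library counts. Other scalings moved the median log2 fold change of all anticodons from -0.29 by 0.25 to 0.32. Without miRNA reads in the library size the ratio of the knockout mean to the wild type was 1.58 for all serine reads, 1.79 for Ser-AGA, 1.66 for Ser-CGA and 1.46 for Ser-GCT. With per-library counts it was 1.57 for all serine reads, 1.44 for Ser-TGA, 1.06 for Ser-CGA and 1.49 for Ser-GCT. The cause of these moves was not tested, apart from the smaller totals without miRNA. Leaving out each knockout library allows no test. The ratio for all serine reads then ran from 1.25 to 1.42, the log2 fold change of Ser-TGA from -0.012 to 0.40 and that of the 53 nt reads of Ser-GCT from -1.90 to 1.34. The share of 24 nt reads in serine differed from the wild type by -2.01 to 6.87 percentage points and that of second-class reads by -9.50 to -1.72 points. No paired analysis was possible because the wild type is a single library with no replicate number. Depth limits Ser-CGA, with 23 to 37 reads per library in the per-library tables.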

Other observations

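The gene table and the per-library tables divided the AGA reads differently among copies. In the gene table tRNA-Ser-AGA-2-2 had 152, 195 and 125 reads in knockout 1, knockout 2 and the wild type, while the other 6 AGA genes with reads had 63 to 89, 124 to 156 and 43 to 57. In the per-library tables AGA-2-2 had 142, 258 and 86 first-class reads and stood among its copies, which over all 7 AGA genes had 128 to 166, 254 to 298 and 86 to 102. The variance over the 6 AGA-2 genes was 13.3, 4.68 and 15.2 times the mean in the gene table, and 1.46, 0.812 and 0.209 times the mean for the 24 nt reads of the per-library tables. The sources used here do not say how the tables differ in making.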
